A study of Mus musculus with 4 samples.

Results

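The cytoplasmic ribosomal protein genes were followed as a family of 85 members among 22402 named mouse genes, 52 with symbols of the large subunit (Rpl and Rplp) and 33 with symbols of the small subunit (Rps and Rpsa). They were chosen by gene symbol alone, leaving out symbols that mark pseudogenes or retro-copies and the S6 kinases, and they occupied 103 transcript rows in each table, 11 members having several. The intronless genes Rpl10l, Rpl32l and Rps4l pass the symbol rule and were kept, although the only row of Rps4l, between 587 and 876 FPKM, is a non-coding RefSeq record. Values came from 4 groups of mouse embryonic stem (ES) cells with 1 library each: p53-/- cells with Adriamycin, p53-/- cells without treatment, p53+/+ cells with Adriamycin and p53+/+ cells without treatment. All 4 came from cells of mixed C57BL/6 and 129Sv background below passage 20, grown in serum with leukemia inhibitory factor. Adriamycin (doxorubicin, a topoisomerase II poison that breaks DNA) was given at 0.5 uM for 8 h. RNA with a poly(A) tail was sequenced, and an exome enrichment kit is named in the labels' protocols. Whether a genotype is more than 1 cell line is not stated.

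Each ribosome holds a copy of every ribosomal protein, and the genes are among the most highly transcribed in dividing cells. Their mRNAs usually begin with a run of pyrimidines at the start of transcription, the 5' terminal oligopyrimidine (TOP) motif, through which growth signals set their translation. Several ribosomal proteins, above all Rpl5 and Rpl11 in a complex with 5S rRNA, bind the ubiquitin ligase MDM2 and thereby stabilise p53, and Rps27l is a known p53 target gene. Ribosomal protein genes also have many processed copies in the mouse genome.

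There was 1 library per group, so no difference below has a replicate check, and none carries a p-value. Values are FPKM, fragments per kilobase of transcript scaled to the mapped fragments of the library, with transcripts summed per gene. Differences were taken after adding 1 FPKM and converting to log2, so changes of low genes are understated. A gene is called higher or lower where the difference reaches 1. Coverage times length summed to 3.52 and 3.34 gigabases in treated and untreated p53-/- cells and to 4.15 and 4.32 gigabases in treated and untreated p53+/+ cells. Trp53, the targeted gene, stood at 76.5 and 78.6 FPKM in treated and untreated p53-/- cells, against 165 and 216 FPKM in treated and untreated p53+/+ cells, and which part of it is deleted is not given. The lowest value of any of the 8 ES cell markers in any library was 77.3 FPKM. Their median difference, p53-/- minus p53+/+, was -0.60 in untreated cells, with 6 of 8 below 0 (54.6% of all genes). In treated cells it was -0.16, with 5 of 8 below 0 (51.0% of all genes). Of 7 fibroblast markers, 6 passed the filter, and these summed to 226 and 269.9 FPKM in treated and untreated p53-/- cells but to 10.5 and 6.40 FPKM in treated and untreated p53+/+ cells, with Col3a1, Postn and Dcn at 0 in both p53+/+ libraries. The 4 primitive endoderm markers summed to 1.79 and 1.41 FPKM in treated and untreated p53-/- cells, against 12.6 and 12.5 FPKM in treated and untreated p53+/+ cells, and 3 neural markers to 11.98 and 13.4 FPKM in treated and untreated p53-/- cells, against 2.10 and 2.86 FPKM in treated and untreated p53+/+ cells. Of the neural markers, Nes and Pax6 were higher in p53-/- cells but Sox1 was lower. Sox1 gave 0.353 and 0.377 FPKM in treated and untreated p53-/- cells, against 1.32 and 1.12 FPKM in treated and untreated p53+/+ cells. The part of cells of these types in the differences between genotypes was not tested. In such bulk samples, fewer cells of a type and less RNA per cell cannot be told apart.

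Ribosomal protein mRNA made up 6.47% of all FPKM in treated p53-/- cells and 8.30% in untreated p53-/- cells, against 8.99% in treated and 8.68% in untreated p53+/+ cells. The median member stood at 87.2 FPKM in treated and 137 FPKM in untreated p53-/- cells, against 124 FPKM in treated and 173 FPKM in untreated p53+/+ cells. The treated p53-/- library held the lowest value of 61 of the 85 members, and the untreated p53+/+ library the highest value of 50. The same counts over all genes were not made. Levels per length were far from equal: the highest member exceeded the lowest 1530 times in treated and 2560 times in untreated p53-/- cells, and 1680 times in treated and 1950 times in untreated p53+/+ cells. The 10 most abundant members supplied 53.01% to 62.41% of the family's FPKM.

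**Figure D1:**
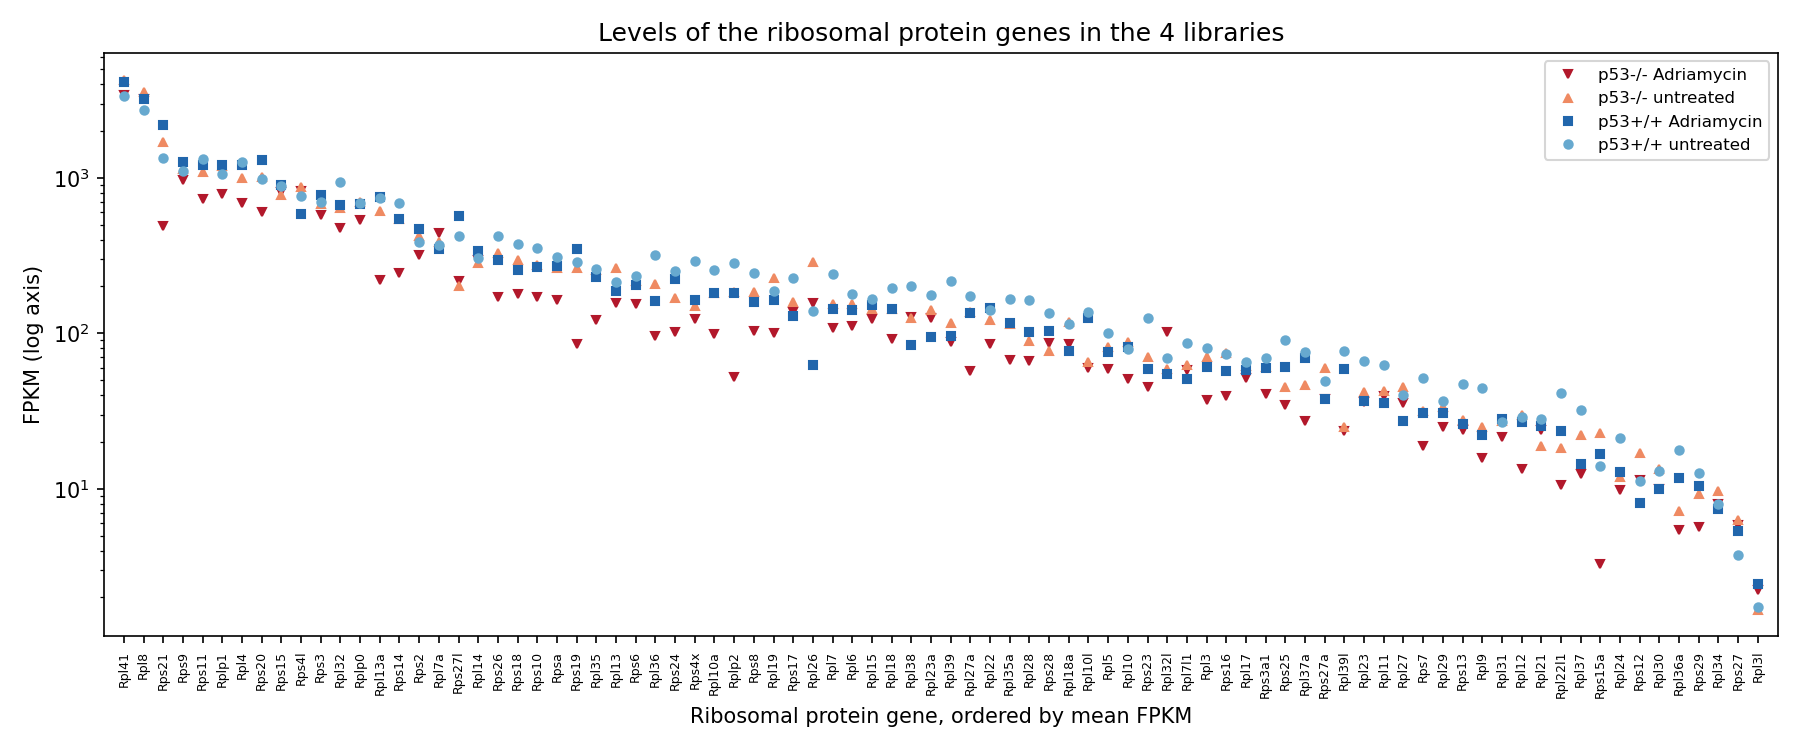
FPKM (log axis) of 84 of the 85 ribosomal protein genes, ordered by mean FPKM, with a symbol for each of the 4 libraries. Most downward triangles (treated p53-/- cells) lie at the bottom of their column, and Rpl41 lies between 3367 and 4279.6 FPKM while Rpl3l lies between 1.67 and 2.44 FPKM.

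Rpl41, which encodes the smallest protein of the large subunit, was the most abundant, with 3423 FPKM in treated and 4279.6 FPKM in untreated p53-/- cells, against 4108 FPKM in treated and 3367 FPKM in untreated p53+/+ cells. Rpl8, a large-subunit protein at the peptidyl transferase centre, gave 3209 and 3580.1 FPKM in treated and untreated p53-/- cells, against 3196 and 2745 FPKM in treated and untreated p53+/+ cells. Rps21 and Rps9, of the small subunit, were also among the 5 highest by mean level. At the other end Rpl3l, the muscle paralog of Rpl3, gave 2.23 and 1.67 FPKM in treated and untreated p53-/- cells, against 2.44 and 1.73 FPKM in treated and untreated p53+/+ cells. Rps27, Rpl34, Rps29 and Rpl36a, whose proteins are standard ribosome components, were also under 20 FPKM in all 4 libraries.

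Members with more of their coding sequence in common with other genes had lower median levels. Of the 50-base windows of each coding sequence, the share also present in transcripts of genes at other loci was 100% in 30 members, 50% to under 100% in 37 and under 50% in 18. For Rpl32l and Rps4l, both among the 18, the whole transcript was compared, since the annotation used gives no coding sequence. The median of the members' mean FPKM was 67.9 for the fully shared members, 162 for the middle group and 681 for the members sharing less than 50%. A mean of 500 FPKM or more occurred in 1 of the 30 fully shared members (Rpl41), 4 of the 37 in the middle group and 11 of the 18 least shared. Spearman's rho between mean level and share was -0.42 over the 85 genes; genes are no independent replicates, and these share libraries and the assignment of reads. How reads that match several genes were assigned is not given in the sources used here, so an FPKM of a shared member is uncertain. Transcript length had a rho of -0.06 with level.

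**Figure D2:**
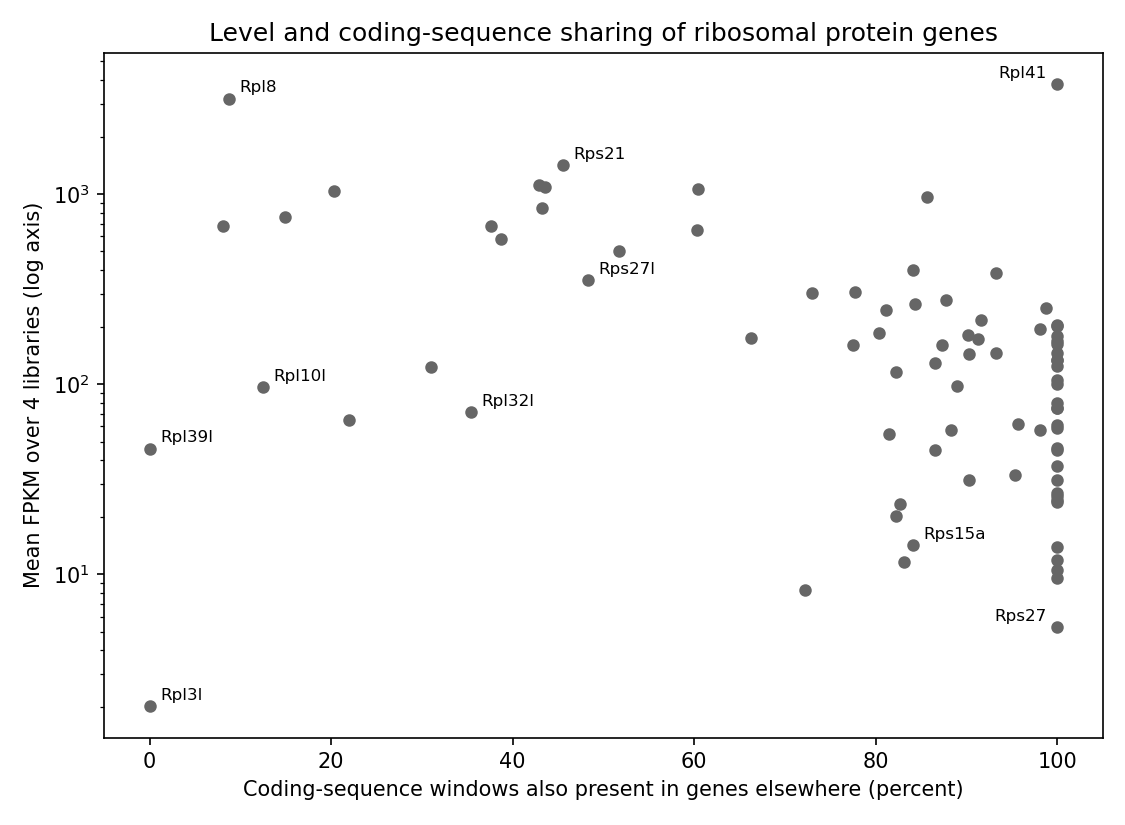
Mean FPKM over the 4 libraries (log axis) of 84 of the 85 genes against the percent of a gene's 50-base coding-sequence windows that also occur in genes elsewhere. Most points above 500 FPKM lie left of 50%, Rpl41 at 100% apart, and Rpl8 stands high at 8.73%.

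The largest drop in the family was that of Rps15a, which shared 84.2% of its windows, and its annotated copies are shown first. The Rps15a coding sequence (GRCm38, transcript at chr7:118104372-118116188, minus strand) and the retro-copy Rps15a-ps4 (chr4:132219988-132220489, minus strand) differ at 9 of 390 aligned bases (97.7% identity). The stretch below covers coding bases 266 to 385 and holds 5 of the 9, in capitals (GENCODE M21).
Rps15a: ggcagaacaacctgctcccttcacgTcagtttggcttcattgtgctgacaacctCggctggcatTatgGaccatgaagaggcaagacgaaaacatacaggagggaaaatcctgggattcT
Rps15a-ps4: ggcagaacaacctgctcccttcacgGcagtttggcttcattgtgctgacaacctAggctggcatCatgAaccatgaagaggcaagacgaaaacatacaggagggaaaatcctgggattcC

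Rps15a, a small-subunit protein, stood at 3.30 FPKM in treated and 22.9 FPKM in untreated p53-/- cells, against 16.8 FPKM in treated and 14.0 FPKM in untreated p53+/+ cells. Rps15a-ps4 gave 183 FPKM in treated and 18.8 FPKM in untreated p53-/- cells, against 9.18 FPKM in treated and 34.8 FPKM in untreated p53+/+ cells. Rps15a with its copies Rps15a-ps4 and Rps15a-ps6 summed to 343 FPKM in treated and 140.3 FPKM in untreated p53-/- cells, against 102 FPKM in treated and 134 FPKM in untreated p53+/+ cells. The sum was highest in the library where Rps15a itself was lowest. The deposited row for Rps15a is 5134 bases long, the longest of the family, beside a median of 710.0 bases and 2606 bases for the next (Rpl7l1). FPKM is scaled by length, so a fragment adds less FPKM on this row than on the rows of its shorter copies. The sum is therefore no count of fragments, and its rise was not separated from this difference in length.

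Copies also outweighed other members. Rplp2-ps1 gave 1574 and 1759 FPKM in treated and untreated p53-/- cells, against 1788 and 1321 FPKM in treated and untreated p53+/+ cells, while Rplp2 itself never exceeded 281 FPKM. Rpl37rt gave 1074 FPKM in treated and 1169.6 FPKM in untreated p53-/- cells, against 1151 FPKM in treated and 997 FPKM in untreated p53+/+ cells, above the 32.1 FPKM that Rpl37 reached at most. Rpl31-ps12 ranged from 241 to 311 FPKM and Rpl31 from 21.4 to 28.3 FPKM. Rps19 shares 81.1% of its windows with 15 other genes, and its copy Rps19-ps3 never exceeded 15.5 FPKM.

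**Figure D3:**
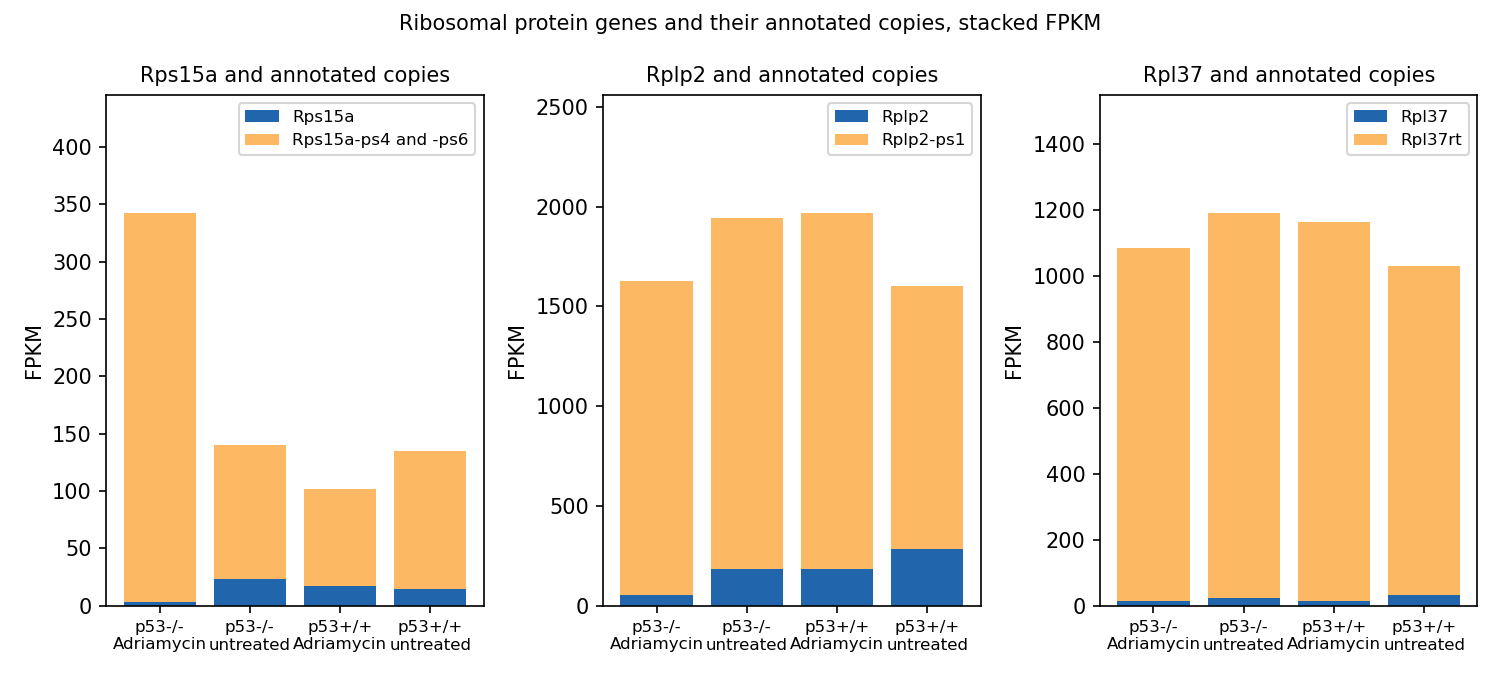
Stacked FPKM of 3 ribosomal protein genes and their annotated copies in each library, 1 bar per library. Rps15a with its copies reaches 343 FPKM in treated p53-/- cells, and Rplp2 and Rpl37 are a thin base under copies of 997 FPKM or more.

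The deposited bounds of each FPKM gave a further measure. An FPKM above its own upper bound occurred in 67.3% of member rows in treated and 63.4% in untreated p53-/- cells, and in 67.3% in both p53+/+ libraries (101 rows with status OK each). All other rows stood above theirs in 7.60% and 6.17% of cases in treated and untreated p53-/- cells and in 7.26% and 8.43% in treated and untreated p53+/+ cells. Other genes with 1 row and at least 10 FPKM had shares of 39.1% and 32.5% in treated and untreated p53-/- cells and 36.4% and 42.8% in treated and untreated p53+/+ cells, and mitochondrial ribosomal protein rows had 60.9% to 66.7%, close to the members' shares. Of the 74 members with 1 row, 68 had their row above its bound in some library, and of the 11 with several rows, 1 did. The 16 members within bounds everywhere include Rps15a, Rpl13a, Rpl35, Rpl26, Rpl32 and Rpl5, the only ones among them with 1 row.

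In treated against untreated p53-/- cells, 11 of 85 members were lower (12.9%, against 0.469% of all 13013 genes) and 0 were higher (0.377% of all genes). The median member differed by -0.47, against 0.07 for all genes, and 76 of 85 members lay below 0, against 35.4% of all genes. Among 1377 other genes averaging at least 50 FPKM, the lower share was 0.944%, the higher share 0.29% and the median -0.04. Genes with short transcripts passed the limit more often than all genes. Among 1113 other genes whose main transcript is under 1000 bases, the lower share was 2.52%, the higher share 1.17% and the median 0.02. The members' 12.9% stood above both of these lower shares. The 11 were Rps15a, Rplp2, Rps21, Rps19, Rpl13a, Rpl27a, Rpl19, Rps14, Rpl12, Rpl36 and Rpl35, from -2.48 to -1.06. They included 7 of 52 large-subunit and 4 of 33 small-subunit genes. Over the 18 members sharing under 50% of windows, 2 were lower (Rps21 and Rpl13a) and the median was -0.14. With the FPKM of annotated copies added to their parent genes, 9 members were lower and 1, Rps15a, was higher. The rows of the Rps15a copies are far shorter than its own, so that sum is no count of fragments.

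Rps21, another small-subunit protein, stood at 490.2 FPKM in treated and 1694 FPKM in untreated p53-/- cells. The difference was -1.79, a ratio of 0.289. The rows of Rps21, Rps19 and Rplp2 lay above their own upper bounds in all 4 libraries. Rps19, the gene most often mutated in Diamond-Blackfan anemia, gave 84.9 FPKM in treated and 261 FPKM in untreated p53-/- cells (-1.61). Rplp2, an acidic protein of the stalk that recruits elongation factors, gave 52.0 FPKM in treated and 186 FPKM in untreated p53-/- cells (-1.82), while Rplp2 and its copy summed to 1626 and 1944 FPKM in treated and untreated p53-/- cells.

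Rpl13a, known in human cells for a role in translational silencing outside the ribosome, gave 219 FPKM in treated and 609 FPKM in untreated p53-/- cells (-1.47). Its bounds, 211 to 229 FPKM in treated and 598 to 631 FPKM in untreated p53-/- cells, did not overlap. Rps15a (2.90 to 3.70 against 21.4 to 23.8 FPKM) and Rpl35 (112 to 133 against 239.9 to 273 FPKM), treated p53-/- cells against untreated p53-/- cells, did not overlap either. All 6 members with 1 row and within bounds everywhere had treated intervals below the untreated ones in p53-/- cells. In p53+/+ cells 3 of the 6 had the treated interval below the untreated one, 1 (Rps15a) had it above, and 2 (Rpl13a and Rpl35) overlapped. The share of all genes with intervals apart was not computed, so these counts describe the 6 genes only. At most, the deposited bounds cover part of the error within a library, and not that between cultures. Most member rows lay above theirs, and whether the bounds allow for reads shared with copies is not given.

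Rpl27a, Rpl19, Rps14, Rpl12, Rpl36 and Rpl35 had ratios of treated to untreated p53-/- cells from 0.420 to 0.478. Rps14, haploinsufficient in the human 5q- syndrome, gave 244 FPKM in treated and 541 FPKM in untreated p53-/- cells. Rpl36 gave 95.5 FPKM in treated and 208 FPKM in untreated p53-/- cells and was nearly at the limit in p53+/+ cells as well, at -0.98. On the upper side of the p53-/- response, Rpl32l had the highest difference, 0.78, with 102 FPKM in treated and 59.3 FPKM in untreated p53-/- cells, and Rpl7a, Rpl21 and Rpl3l were also above 0.

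**Figure D4:**
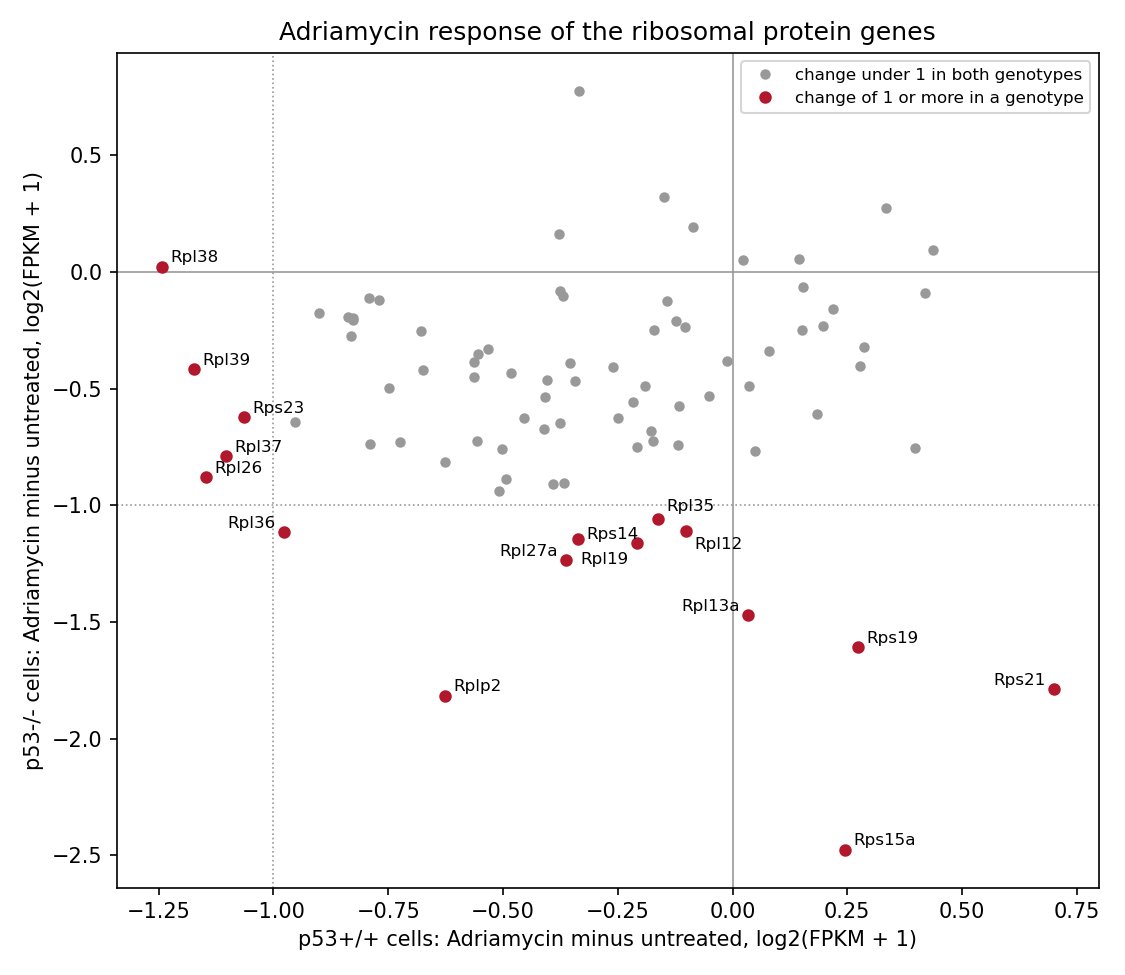
Adriamycin minus untreated on the log2(FPKM + 1) scale for each of the 85 genes, p53-/- cells on the vertical axis and p53+/+ cells on the horizontal axis, with dotted lines at -1. Named points differ by 1 or more in a genotype: 11 lie at or below -1 in p53-/- cells and 5 in p53+/+ cells, with none in both (transcripts summed).

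The pyrimidine run that marks TOP mRNAs was looked for in RefSeq promoters (GRCm38.p6), which hold 64 of the 85 members in 76 windows. A run of at least 5 bases of C or T beginning exactly at the annotated start, on the gene's strand only, occurred in 22.4% of member windows and in 4.44% of all 32851 windows. Counted by gene, 17 of the 64 members have the run. Of the 11 genes lower in the p53-/- response, 9 have a promoter here and 5 of those genes have the run (5 of their 13 windows). The starts of these 5 are shown with that of Rps27l, a p53 target gene that lacks the run, like most members with a promoter here. For a gene with several windows, the printed start is that with the longest run. Printed are 15 bases before each start and 15 from it, with the run in capitals. They lie at chr7:118116133-118116162 (minus), chr7:141447636-141447665 (plus), chr2:180257364-180257393 (plus), chr7:109519180-109519209 (plus), chr2:39005117-39005146 (minus) and chr9:66946071-66946100 (plus), in the order printed.
Rps15a: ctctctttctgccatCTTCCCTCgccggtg
Rplp2: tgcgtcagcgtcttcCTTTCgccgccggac
Rps21: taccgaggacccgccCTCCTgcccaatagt
Rpl27a: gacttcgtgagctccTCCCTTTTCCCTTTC
Rpl35: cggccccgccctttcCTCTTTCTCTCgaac
Rps27l: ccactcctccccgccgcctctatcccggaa

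In p53+/+ cells, 5 of 85 members were lower after Adriamycin (5.88%, against 2.78% of all genes) and 0 were higher (11.4% of all genes). The median was -0.34, against 0.05 for all genes and -0.23 for other genes with a mean of at least 50 FPKM, and 65 of 85 lay below 0 (45.9% of all genes). Of those 1377 other genes of at least 50 FPKM, 5.01% were lower, 2.54% were higher and 972 lay below 0. The members' share of lower genes was thus near that of other abundant genes. The 5 lower members were Rpl38, Rpl39, Rpl26, Rpl37 and Rps23, from -1.24 to -1.06. With transcripts summed none of these 5 was lower by 1 in p53-/- cells. On its main transcript Rpl38 was lower in both genotypes, at -1.73 in p53-/- and -2.59 in p53+/+ cells. Over the 18 members sharing under 50% of windows, a restriction chosen after seeing the data, 0 were lower and the median was 0.0281. Median of ratios scaling gave 8 lower members and quantile normalization 2. These scalings moved the median of all genes to -0.04 and -0.10. The share of all genes lower under either scaling was not computed. ES cell markers had a median of -0.91 in the same comparison, and the part of this shift in the members' values was not tested.

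Rpl26, which in human cells binds p53 mRNA, gave 62.6 FPKM in treated and 139.9 FPKM in untreated p53+/+ cells. Rpl39, an X-linked member at the exit tunnel, gave 95.8 FPKM in treated and 217 FPKM in untreated p53+/+ cells. Rps23, at the decoding centre, gave 59.0 FPKM in treated and 124 FPKM in untreated p53+/+ cells.

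Rpl38, whose loss in mice alters Hox mRNA translation, gave 127 FPKM in treated and 125 FPKM in untreated p53-/- cells, against 84.2 FPKM in treated and 201 FPKM in untreated p53+/+ cells. Its 3 rows differed. The 352-base row stood at 17.2 FPKM in treated and 59.4 FPKM in untreated p53-/- cells, against 22.3 FPKM in treated and 139.7 FPKM in untreated p53+/+ cells. The 369-base row stood at 26.1 FPKM in treated and 65.4 FPKM in untreated p53-/- cells, against 25.8 FPKM in treated and 61.0 FPKM in untreated p53+/+ cells. The 285-base row, of status LOWDATA in every library, gave 83.6 FPKM in treated p53-/- and 36.1 FPKM in treated p53+/+ cells and near 0 in both untreated libraries, so the nearly equal sums in p53-/- cells rest on it. Rpl38 and Rpl31 are the members whose main transcript and sum differ by more than 1.

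The 2 responses had 60 members below 0 in both, 16 below 0 only in p53-/- cells and 5 only in p53+/+ cells. Joint counts over all genes were not made. Taken singly, 35.4% of all genes lay below 0 in the p53-/- response and 45.9% in the p53+/+ response. The p53-/- response minus the p53+/+ response was lower in 7 members (8.24%, against 10.4% of all genes) and higher in 2 (2.35%, against 3.29%). The median was -0.17, against 0.01 for all genes, and 55 of 85 lay below 0 (49.2% of all genes). Rps15a (-2.72), Rps21 (-2.49), Rps19 (-1.88), Rpl13a (-1.50), Rplp2 (-1.19), Rps20 (-1.15) and Rpl12 (-1.01) were the lower ones, and Rpl38 (1.27, or 0.86 on its main transcript) and Rpl32l (1.11) the higher ones. Rps21 gave 2178 FPKM in treated and 1339.9 FPKM in untreated p53+/+ cells, the highest difference of any member there, 0.70.

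Between treated cells, 14 members were lower in the p53-/- library than in the p53+/+ library (16.5%, against 13.0% of all genes) and 1 was higher (1.18%, against 6.72%). The median was -0.43, against -0.02 for all genes and 0.25 for other genes of at least 50 FPKM, and 68 of 85 lay below 0 (51.0% of all genes). Rps21 (-2.15), Rps15a (-2.05), Rps19 (-2.02), Rplp2 (-1.79) and Rpl13a (-1.78) led, with Rpl27a and Rps14 further down among the 14. This comparison and the p53-/- response share the treated p53-/- library. Rps19 stood at 84.9 FPKM in treated p53-/- cells and 347 FPKM in treated p53+/+ cells.

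Between untreated cells, 5 members were lower in the p53-/- library than in the p53+/+ library (5.88%, against 3.14% of all genes) and 1 was higher (1.18%, against 3.51%). The median was -0.27, against -0.05 for all genes, and 59 of 85 lay below 0 (54.6% of all genes). The 5 were Rpl39l, Rpl36a, Rpl22l1, Rpl10l and Rps27l, of which 4 are paralogs, and the one higher was Rpl26.

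Rps27l gave 216 FPKM in treated and 202 FPKM in untreated p53-/- cells, against 569 FPKM in treated and 420.3 FPKM in untreated p53+/+ cells. Both p53-/- values lay below both p53+/+ values, at -1.39 in treated and -1.05 in untreated cells. Its paralog Rps27 gave 5.86 and 6.29 FPKM in treated and untreated p53-/- cells, against 5.33 and 3.73 FPKM in treated and untreated p53+/+ cells. Nearly all of this came from a non-coding RefSeq row, the coding row reaching 0.0581 FPKM at most. A row named Rps27rt at the same mm9 locus held 6.11 FPKM in untreated p53+/+ cells and 0 in the other libraries. With it, untreated p53+/+ cells had the highest sum, 9.84 FPKM. The coding sequences of Rps27l (chr9:66946086-66949512, plus strand) and Rps27 (chr3:90212671-90213651, minus strand; spans of the transcripts, GRCm38) differ at 60 of 252 bases, in capitals, and Rps27 shares 100% of its windows with other genes while Rps27l shares 48.3%.
Rps27l: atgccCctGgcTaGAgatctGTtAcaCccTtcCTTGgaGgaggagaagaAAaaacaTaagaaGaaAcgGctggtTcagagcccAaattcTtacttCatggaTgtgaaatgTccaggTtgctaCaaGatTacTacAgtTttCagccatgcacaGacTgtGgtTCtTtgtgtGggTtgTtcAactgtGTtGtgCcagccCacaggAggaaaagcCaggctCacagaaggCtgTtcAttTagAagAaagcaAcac
Rps27: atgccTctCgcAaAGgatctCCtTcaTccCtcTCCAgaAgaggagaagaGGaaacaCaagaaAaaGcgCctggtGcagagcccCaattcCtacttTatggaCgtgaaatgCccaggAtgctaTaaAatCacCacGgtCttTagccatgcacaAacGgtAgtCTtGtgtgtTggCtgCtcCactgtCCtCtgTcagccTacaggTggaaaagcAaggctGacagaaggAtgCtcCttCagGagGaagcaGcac

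Rpl39l, a paralog of Rpl39 best known from testis, gave 23.6 FPKM in treated and 25.0 FPKM in untreated p53-/- cells, against 58.8 FPKM in treated and 76.5 FPKM in untreated p53+/+ cells. Rpl10l, the intronless paralog of Rpl10 that serves spermatogenesis, gave 60.2 and 65.7 FPKM in treated and untreated p53-/- cells, against 124 and 137 FPKM in treated and untreated p53+/+ cells. Rpl22l1, the paralog of Rpl22, gave 10.5 and 18.2 FPKM in treated and untreated p53-/- cells, against 23.4 and 41.2 FPKM in treated and untreated p53+/+ cells. The 8 genes listed as paralogs were Rpl3l, Rpl7l1, Rpl10l, Rpl22, Rpl22l1, Rpl39l, Rps27l and Rps4l. The list thus holds Rpl22 itself and leaves out Rpl32l. Of these 8, 4 (Rpl39l, Rpl10l, Rpl22l1 and the p53 target Rps27l) were lower in p53-/- cells in each state. The shares of all genes were 13.0% in treated and 3.14% in untreated cells. In either response, 0 of 8 changed by 1. Of all genes, 0.469% were lower and 0.377% higher in the p53-/- response, and 2.78% lower and 11.4% higher in the p53+/+ response. Rpl39l and Rpl10l share 0% and 12.5% of their windows.

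Rpl26 ran the other way, with 156 FPKM in treated and 288 FPKM in untreated p53-/- cells, against 62.6 FPKM in treated and 139.9 FPKM in untreated p53+/+ cells. It was the only member higher in p53-/- cells, by 1.31 in treated and 1.04 in untreated cells, and its bounds held its FPKM in all 4 libraries.

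**Figure D5:**
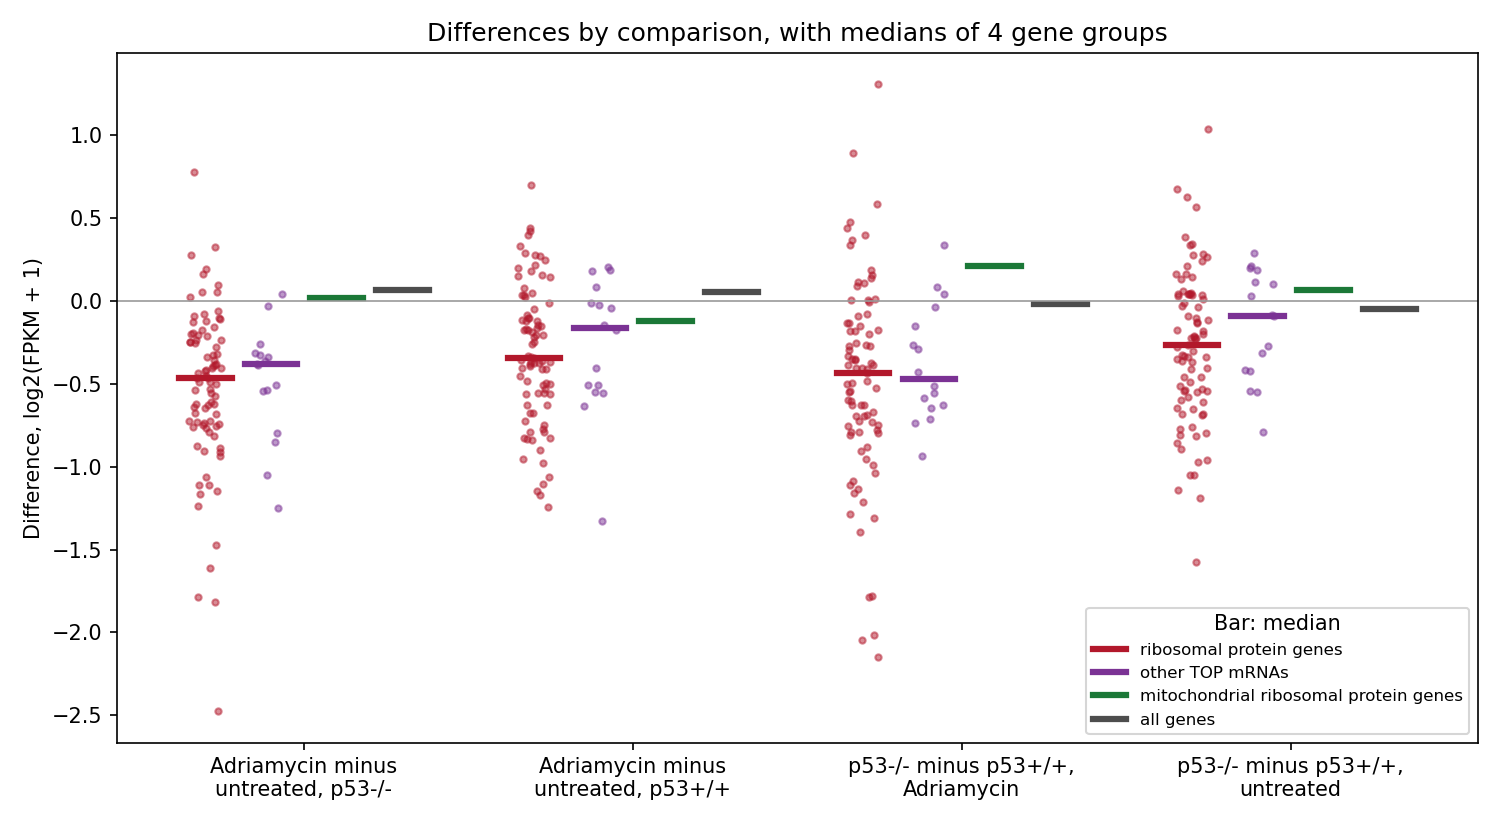
Differences on the log2(FPKM + 1) scale in 4 comparisons, with a point for each ribosomal protein gene and each of 16 other TOP mRNAs, and bars for the medians of these, of 78 mitochondrial ribosomal protein genes and of all genes. The members' median lies lowest in 3 comparisons and just above that of the TOP mRNAs in treated cells (-0.43 and -0.47).

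Among the 17 ribosomal proteins known to bind MDM2 or to form the 5S particle, 1 was lower after Adriamycin in p53-/- cells (Rps14) and 2 in p53+/+ cells (Rpl26 and Rpl37), with medians of -0.47 and -0.38. Of all genes, 0.469% were lower in the p53-/- and 2.78% in the p53+/+ response. Rpl5 gave 59.2 and 82.0 FPKM in treated and untreated p53-/- cells, against 76.1 and 101 FPKM in treated and untreated p53+/+ cells. Rpl11 gave 39.2 FPKM in treated and 42.5 FPKM in untreated p53-/- cells, against 35.6 FPKM in treated and 62.4 FPKM in untreated p53+/+ cells. Neither of these core components differed by 1 in any comparison. Rps20 was lower in treated p53-/- than in treated p53+/+ cells, with 599.5 against 1293 FPKM.

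Of 12 genes mutated in Diamond-Blackfan anemia, 2 were lower after Adriamycin in p53-/- cells (Rps19 and Rpl35) and 0 in p53+/+ cells, with medians of -0.62 and -0.31. Rps24 stood at 101 FPKM in treated p53-/- cells and 224 FPKM in treated p53+/+ cells, a difference of -1.13. In the P stalk, Rplp0 gave 538 and 701 FPKM in treated and untreated p53-/- cells, and 679 and 684 FPKM in treated and untreated p53+/+ cells. Rplp1 gave 781 FPKM in treated and 1193 FPKM in untreated p53-/- cells, and 1208 FPKM in treated and 1063 FPKM in untreated p53+/+ cells. Of the 4 X-linked members, 0 were lower in p53-/- cells and 1 (Rpl39) in p53+/+ cells after Adriamycin. Beside both sets, the shares of all genes lower after Adriamycin were 0.469% in p53-/- and 2.78% in p53+/+ cells.

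The other TOP mRNAs, which encode elongation and initiation factors and related proteins, were lower in 2 of 16 cases in p53-/- cells (Naca and Nap1l1), 15 of 16 lay below 0 and the median was -0.38. In p53+/+ cells 1 of 16 was lower (Naca), 12 of 16 lay below 0 and the median was -0.16. Mitochondrial ribosomal protein genes had 1 of 78 lower in p53-/- cells and 0 in p53+/+ cells, with medians of 0.02 and -0.12. Over all genes, 0.469% were lower in p53-/- and 2.78% in p53+/+ cells, and 35.4% and 45.9% lay below 0. Another 4 genes for ribosomal proteins fall outside the symbol rule, and 0 of them differed by 1 in any comparison. Rack1, a scaffold on the small subunit, gave 3377 and 3429 FPKM in treated and untreated p53-/- cells, against 2493 and 2322 FPKM in treated and untreated p53+/+ cells. Fau, the source of the small-subunit protein eS30, gave 51.6 FPKM in treated and 92.5 FPKM in untreated p53-/- cells, against 66.3 FPKM in treated and 123 FPKM in untreated p53+/+ cells. Rpl36al, a relative of Rpl36a, differed by -0.41 at most, after Adriamycin in p53+/+ cells.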

How the data were processed

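The authors deposited 1 Cufflinks transcript table of FPKM per library, with read coverage, transcript length, bounds and status, per the file headers (30769 rows each). CASAVA 1.8.1, TopHat2 2.0.5, TopHat, Cufflinks and the build mm9 are named per the submitters' processing notes, without role or order. No source used here gives the annotation or the Cufflinks version. Neither the deposited FPKM nor the deposited coverage signal is a count, and count models were not used.

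RefSeq identifiers gave symbols for 30227 rows and GENCODE M21 for 161 more, leaving 381 unnamed. Short RNA rows (802) were left out, transcripts were summed, and the 13013 genes at 1 FPKM or more in a library (all 85 members) were compared. The pseudocount was 1 FPKM. Coding sequences came from GENCODE M21 on GRCm38. The bounds are at 95%. The members and lists were chosen with earlier results of these data known. Named genes were members of the described lists, up to 10 members with the largest differences each way at 5 FPKM or more, the 5 highest and 5 lowest, members whose sum and main transcript differ by over 1, and related copies and TOP mRNAs. Some results that this rule would name are not reported here. Other names (such as Rpl7a, Rpl32 and Rps9) were chosen after their values were seen. Alternatives were other pseudocounts, filters, scalings, transcripts and member subsets. Calculations used matplotlib 3.10.9, scipy 1.17.1, numpy 2.4.6, pandas 2.3.3 and Python 3.11.15, and were tested on simulated libraries.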

Additional observations from a re-analysis of the deposited data

Results flagged for a closer look

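For 7 members the p53-/- and p53+/+ responses had different signs and lay at least 1 apart, although Rpl13a in p53+/+ cells and Rpl38 in p53-/- cells were close to 0. With 1 library per group these differences were not tested. The same count over all genes was not made. Whatever the signs, 10.4% of all genes were lower and 3.29% higher by 1 or more in the difference of responses. The p53-/- response minus the p53+/+ response was -2.72 for Rps15a (-2.48 in p53-/- and 0.25 in p53+/+ cells) and -2.49 for Rps21 (-1.79 in p53-/- and 0.70 in p53+/+ cells). It was -1.88 for Rps19 (-1.61 in p53-/- and 0.27 in p53+/+ cells), -1.50 for Rpl13a (-1.47 in p53-/- and 0.03 in p53+/+ cells) and -1.15 for Rps20 (-0.75 in p53-/- and 0.40 in p53+/+ cells). On the other side it was 1.27 for Rpl38 (0.02 in p53-/- and -1.24 in p53+/+ cells with transcripts summed, but -1.73 in p53-/- and -2.59 in p53+/+ cells on its main transcript) and 1.11 for Rpl32l (0.78 in p53-/- and -0.33 in p53+/+ cells).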

How the results depend on the processing

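No paired analysis was possible because each group has 1 library and the labels carry no replicate numbers. Medians kept their sign under every alternative but one, chosen after seeing the data: over the 18 members sharing under 50% of windows, the p53+/+ response median was 0.0281, and 0 members were counted there. Under that restriction the p53-/- response median was -0.14 with 2 lower members. Between genotypes 3 of the 18 were lower in untreated and 5 in treated cells. The difference of responses had 1 higher and 2 lower. In the p53+/+ response, median of ratios scaling gave 8 lower members and a median of -0.46 while shifting the median of all genes to -0.04. Quantile normalization gave 2 lower members while shifting the median of all genes to -0.10. The share of all genes called under either scaling was not computed. Over the 16 members within their own bounds, 4 were lower in the p53-/- and 2 in the p53+/+ response. Between genotypes 1 was higher in untreated cells, and 1 was higher and 3 lower in treated cells. The difference of responses had 1 higher and 2 lower. Medians of these 16 were -0.17 for the p53+/+ response and -0.0212 for untreated cells. Beside both subsets, the shares of all genes lower and higher were 0.469% and 0.377% in the p53-/- response. They were 2.78% and 11.4% in the p53+/+ response and 3.14% and 3.51% between untreated cells. Between treated cells they were 13.0% and 6.72%, and in the difference of responses 10.4% and 3.29%. At a step of 1.5-fold the counts were 36 in the p53-/- response (1 higher, 35 lower; 1.59% and 1.49% of all genes), 22 in the p53+/+ response (1 higher, 21 lower; 21.7% and 11.3% of all genes), 39 between treated cells (3 higher, 36 lower; 17.7% and 23.4%), 24 between untreated cells (3 higher, 21 lower; 10.3% and 11.0%) and 25 in the difference of responses (9 higher, 16 lower; 13.8% and 19.9%). With the main transcript of each member, rows above their bound came to 80.0% and 75.3% in treated and untreated p53-/- cells and to 78.8% and 80.0% in treated and untreated p53+/+ cells. With annotated copies, the share of all FPKM was 7.39%, 9.20% and 9.95% in treated p53-/-, untreated p53-/- and treated p53+/+ cells. The other 100 values were within the limits set for a change. The causes were not tested. Depth limits the members under 20 FPKM most.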

Other observations

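Rpl26 lies on chromosome 11, 675824 bases from Trp53 in mm9. Of 78 genes within 1 Mb of Trp53, Rpl26 included and Trp53 left out, 5 were higher and 2 lower in untreated p53-/- than in untreated p53+/+ cells, with a median of 0.34. Of all genes, 3.51% were higher and 3.14% lower in this comparison, with a median of -0.05. Rpl26 had the 4th highest difference among the 78 and Cldn7 the highest, 1.64.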
